A study of Mus musculus with 14 samples.

Results

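The gene desert between Nectin3 and Gm52257 is a stretch of mouse chromosome 16 from 46660001 to 47940000 (mm10) that holds no protein-coding gene. Its members were all pairs of 10 kb bins with both bins inside this stretch and at least 100 kb between them. That gave 7021 of the 138075 such bin pairs in a contact matrix of 535 bins that spans 45520001 to 50870000. The stretch of 1140 kb on its left and the one of 2930 kb on its right served as comparison.

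The series describes 14 Capture Hi-C samples in 10 groups, made from a Cas/129 hybrid of mouse embryonic stem cells (mESC), from neural precursor cells (NPC), or from mESC with 1 of 8 rearrangements (100k.del, 145k.del, 18k.del, bc.del, 680kinv, abc.del, ab.del or c.del). No matrix analysed here carries the name of any of them. The data were 2 pooled 10 kb matrices known only by their deposited names, untreated mESC and auxin-treated mESC (2 days), here the untreated and the auxin matrix. Auxin is commonly given to cells to degrade a protein that carries an auxin-responsive tag, and no label names auxin or such a protein, nor the strain or clone behind these matrices. The replicates of each were combined before deposit, so no test between conditions was possible. Every comparison below is between these libraries and not between the conditions.

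In Hi-C, neighbouring pieces of cut DNA are ligated inside the nucleus, and the number of read pairs linking a pair of bins measures how often they meet. Contact falls steeply with distance along the chromosome, so a region is judged against the mean for pairs the same distance apart. Gene deserts are long stretches without protein-coding genes. When transcriptionally silent they often form broad domains that meet themselves and other inactive chromatin over long distances, and the boundaries that divide them are seen as local drops in the contacts passing over a bin.

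In the annotation used (RefSeq, GRCm38.p6) the gap between Nectin3 and Gm52257 measured 1559.1 kb. It was the widest between neighbouring protein-coding genes among the 28 of the interval, and the next, between Gm4802 and Ift57, measured 286.6 kb. Nectin3, a gene for a cell adhesion protein, ended 161.5 kb to the left of the desert, and Gm52257, a predicted gene, began 117.6 kb to its right. Inside lay 4 pseudogenes, Gm35687, Gm6912, Gm18169 and Gm6914, and 1 small nuclear RNA gene, Gm24651. The promoter of Gm52257 is shown from the RefSeq table because the libraries described in the labels were cut with MboI, which cuts at GATC, and because the contacts of this gene with the desert are given below. It is the 300-base window around the start of Gm52257 at chr16:48057389-48057688 on the plus strand (GRCm38.p6), with the GATC sites in capitals.
Gm52257 promoter: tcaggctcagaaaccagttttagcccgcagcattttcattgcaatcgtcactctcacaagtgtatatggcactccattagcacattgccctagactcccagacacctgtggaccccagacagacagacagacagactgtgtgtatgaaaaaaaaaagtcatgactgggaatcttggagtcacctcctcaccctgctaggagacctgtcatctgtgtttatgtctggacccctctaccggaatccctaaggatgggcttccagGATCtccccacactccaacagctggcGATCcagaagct
It holds 2 such sites, and 48.0% of the 32851 mouse promoter windows of this length in the table hold at least 1; GATC reads the same on both strands. No sequence inside the desert was read.

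In all, 439849 read pairs lay behind the untreated values and 433895 behind the auxin values. Within the desert 31510 and 29173 read pairs linked bins at least 100 kb apart, and 16.4% and 17.1% of its bin pairs were empty. Desert bins held 32 to 3718 read pairs untreated and 37 to 3432 auxin, with medians of 1342.5 and 1300.5 against 1639 and 1633 for the other bins. Bins under 100 read pairs in either matrix are called sparse. They numbered 18 in the interval and 4 in the desert, the bins starting at 46990001, 47160001, 47470001 and 47650001. The value of every desert contact also depends on how the matrix was balanced. As deposited, the bins that were not sparse had a median row sum of 1603 in the desert, 1347 on its left and 1319 on its right in the untreated matrix, and of 1621, 1329 and 1408 in the auxin matrix. Balancing both matrices again within the interval makes all row sums equal, and the main results that change with this are given both ways.

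Contacts inside the desert were more frequent than the mean at the same distance in the deposited values, and the excess was largest for its most distant parts in the untreated matrix. Distance-corrected contact, the summed contact over the sum of the interval's means at the same distances, was 1.15 (1.13 to 1.17) untreated and 1.10 (1.08 to 1.12) auxin. Ranges in brackets are 95% intervals for counting error only, not adjusted for the number of comparisons, and a difference is called higher or lower where the interval of the log2 ratio excludes 0. The log2 ratio of auxin over untreated was -0.06 (-0.10 to -0.02). For comparison, the left stretch gave 0.973 and 1.02 and the right stretch 0.915 and 0.968. After the matrices were balanced again the desert gave 0.962 and 0.938, both below 1, with a log2 ratio of -0.04 (-0.08 to 0.01). Whether the desert as a whole exceeds the mean therefore turned on the balancing, and what follows rests on patterns within it.

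The pattern that held under both was one of distance. At 100 to 250 kb the desert gave 1.11 (1.07 to 1.15) untreated and 1.12 (1.08 to 1.15) auxin, and at 250 to 500 kb it gave 1.12 and 1.10. The intervals of both log2 ratios included 0, at 0.00 and -0.03. At 500 to 1000 kb the untreated value was 1.247 (1.202 to 1.293) and the auxin value 1.09 (1.05 to 1.13). At 1000 kb and more, where the left end of the desert meets its right end, the values were 1.47 (1.35 to 1.60) and 1.14 (1.040 to 1.245), from 989 and 789 read pairs. The desert thus held on to contact with growing distance better than the interval did in the untreated matrix, and by the same factor at all distances in the auxin matrix to within these intervals. The log2 ratios of the longer ranges were -0.20 (-0.27 to -0.12) and -0.37 (-0.54 to -0.19). Balanced again, the 4 ranges gave 0.920, 0.932, 1.06 and 1.27 untreated and 0.945, 0.930, 0.936 and 0.981 auxin, with log2 ratios of -0.18 (-0.28 to -0.09) and -0.37 (-0.55 to -0.18) for the longer ones.

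**Figure D1:**
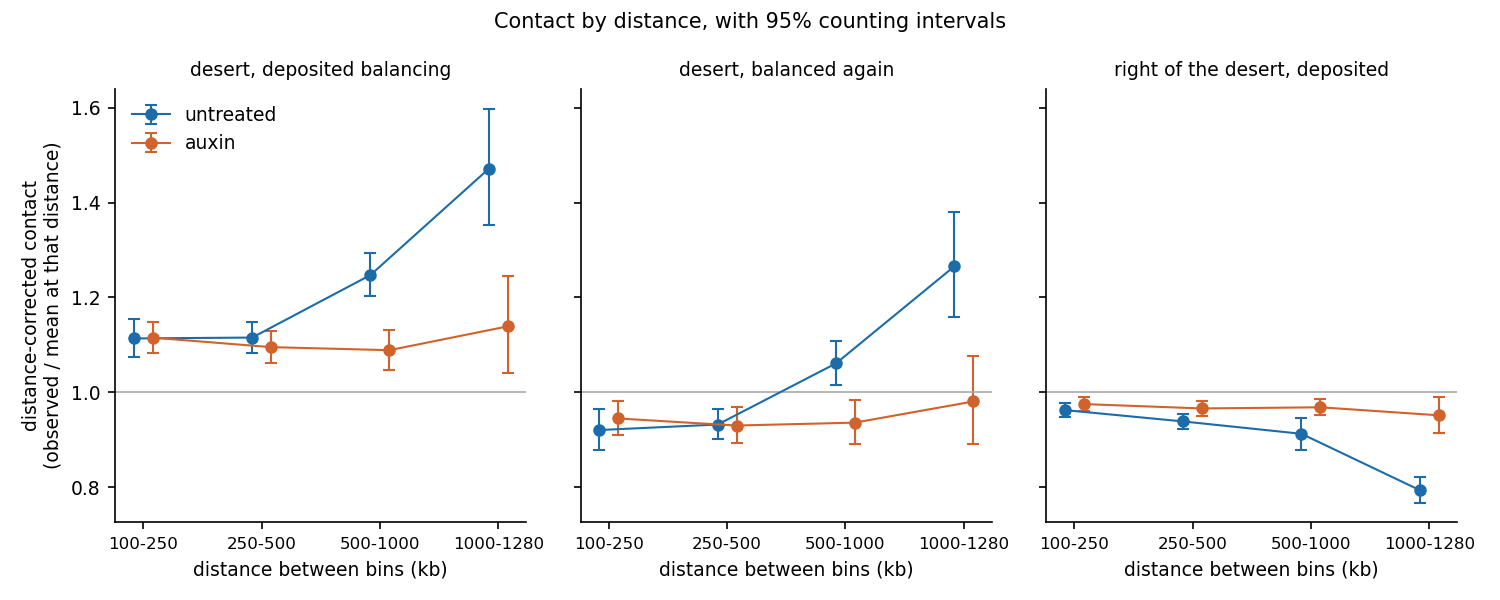
Distance-corrected contact (no unit) of bin pairs in 4 ranges of distance (kb), for the desert as deposited and balanced again and for the stretch to its right as deposited, with points for the untreated and auxin matrices and bars for 95% counting intervals. Untreated desert contact climbs from 1.11 to 1.47 as deposited and from 0.920 to 1.27 balanced again, while the auxin points stay near one level in each panel.

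As deposited, the stretches beside the desert had higher auxin values over the longer distances. Right of the desert, contact at 1000 to 1280 kb was 0.794 untreated and 0.952 auxin, a log2 ratio of 0.26 (0.19 to 0.34). Left of it, contact at 500 to 1000 kb was 0.854 and 1.11 (0.38, 0.27 to 0.50). Balanced again, these 2 ratios were 0.20 (0.09 to 0.31) and 0.42 (0.29 to 0.55). The right stretch at 500 to 1000 kb then had an interval including 0 (0.03, -0.04 to 0.10). So had the left stretch at 1000 to 1280 kb (0.55, -0.05 to 1.15). Since the expected level is the mean of the same matrix, a rise elsewhere lowers the desert's corrected value. An expected level from pairs with no desert bin did not remove this effect. At 1000 to 1280 kb it rested on 5026 bin pairs of the right stretch and 105 of the left. The right stretch then lay near 1 by construction, at 1.00 and 0.997. The desert gave 1.87 and 1.20 (-0.64, -0.82 to -0.47), in effect against the right stretch, whose own rise this ratio includes. The balanced values in the desert had means of 3.63 untreated and 3.34 auxin at 500 to 1000 kb and of 2.42 and 2.09 at 1000 kb and more. These means depend on the balancing and have no scaling for depth, so they cannot tell a fall in the desert from a rise elsewhere. Which of these occurred was not tested. The slope of contact against distance on log10 scales, from 100 to 1000 kb, was -0.68 untreated and -0.77 auxin in the desert. On the left it was -0.96 and -0.65, and on the right -0.85 and -0.76, so that the desert had the shallowest decay of these stretches untreated, also when balanced again (-0.67 in the desert) and without sparse bins (-0.70). In the auxin matrix its slope lay close to that of the right stretch. These slopes are descriptions over 91 distances, with no error of their own.

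For a map of the desert at lower resolution it was cut into 13 blocks, B1 to B13 from left to right, of 100 kb each apart from the last of 80 kb. In the 78 pairs of different blocks the median contact was 1.16 untreated and 1.10 auxin, and 73 and 64 pairs lay above 1. Block pairs over the whole interval at the same separations were above 1 in 53.6% and 52.9% of 558. The desert pairs spread less, with an SD of 0.160 untreated and 0.112 auxin against 0.346 and 0.233. Balanced again, 32 and 20 of the 78 lay above 1, with medians of 0.968 and 0.937.

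Between the matrices 1 of the 78 pairs was at least 25% higher in auxin (1.28%) and 11 were at least 20% lower (14.1%), which is the same factor either way. Over the interval 20.1% of block pairs were higher and 12.7% lower by this measure. The share of lower pairs was therefore near the background, and the share of higher pairs was below it. The lower pairs were distant ones. Of the 36 pairs of blocks at least 500 kb apart 10 were at least 20% lower, against 15.7% of 356 in the interval, and of the 42 nearer pairs 1 was, against 7.43% of 202. The distant pairs had median contacts of 1.24 untreated and 1.10 auxin, and 33 of 36 had a lower auxin value, while the nearer pairs had medians of 1.09 and 1.11. The median log2 ratio of the distant pairs was -0.20, against 0.04 over the 356 of the interval. For the nearer pairs it was 0.01, against 0.02 over the 202. Balanced again, 10 of 36 were at least 20% lower and 29 had a lower value, and without sparse bins the counts were 9 and 32. The interval's shares of pairs at least 20% lower were then 14.6% and 13.8% of 356. In these settings the distant desert pairs had median log2 ratios of -0.16 and -0.20, against 0.03 and 0.01 over the interval.

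The highest contacts of the untreated desert all joined a block of its left part with B12 or B13 at its right end. B4 with B13 had a contact of 1.87 (1.30 to 2.57) untreated and 0.830 (0.648 to 1.10) auxin, the largest difference in the desert, with a log2 ratio of -1.17 (-1.75 to -0.58). This pair rested on 187 and 129 read pairs and B4 holds a sparse bin; without sparse bins the values were 1.60 and 0.893, a log2 ratio of -0.84 (-1.29 to -0.39). B1, the block nearest to Nectin3, with B12 gave 1.62 and 1.21 (-0.42, -0.78 to -0.06). B1 with B13, the ends of the desert, gave 1.54 (1.32 to 1.79) and 1.14 (0.949 to 1.35), a log2 ratio of -0.44 (-0.77 to -0.11). The interval of this end-to-end contact included 1 in the auxin matrix and lay above it untreated. B3 with B13 went from 1.49 untreated to 1.01 auxin (-0.56, -0.90 to -0.23), and B2 with B12 from 1.52 to 1.27 (-0.26, -0.65 to 0.13). The other pairs among the 5 largest falls were B1 with B11, from 1.35 to 0.969 (-0.48, -0.76 to -0.19), and B3 with B9, from 1.35 to 0.973 (-0.47, -0.76 to -0.18). All these pairs were picked by their untreated values or their ratios, and the intervals do not allow for that. Over the 78 pairs the untreated and auxin values had a Pearson r of 0.01 and a Spearman rho of 0.14. Pairs picked for high untreated values therefore tend to lie lower in auxin through the picking.

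The lowest untreated contacts mostly involved B9, the block from 47.46 to 47.56 Mb that holds the small nuclear RNA gene Gm24651. B5 with B9 gave 0.881 (0.783 to 1.01) and 1.06, B9 with its neighbour B10 0.894 and 1.01, B9 with B13 0.969 and 1.03, and B8 with B9 1.00 and 1.09. The fifth of the lowest pairs was B3 with B5, at 0.990 and 1.07. As deposited all 5 had log2 ratios above 0 with intervals that included 0. Picking pairs for low untreated values likewise tends to give ratios above 0. Without sparse bins the untreated values were 0.953 for B5 with B9, 0.986 for B9 with B10, 1.03 for B9 with B13 and 1.01 for B8 with B9. B9 with B10 then had an interval above 0 (0.25, 0.02 to 0.48) and B9 with B13 turned to -0.04 (-0.28 to 0.20). Over all its contacts inside the desert B9 had the lowest value of the 13 blocks in both matrices, 1.05 (1.00 to 1.10) and 1.03 (0.982 to 1.07). B9 holds the bin of 32 and 37 read pairs starting at 47470001; without sparse bins it gave 1.10 and 1.07, and B5 was lowest at 1.07 and 1.03. Balanced again, B9 had the lowest value untreated (0.907) and B7 had the lowest auxin (0.905).

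The largest rise, B4 with B10, turned below 0 without sparse bins. The pair gave 1.08 untreated and 1.501 auxin (0.47, -0.15 to 1.10); both blocks hold a sparse bin, and without sparse bins the values were 1.30 and 1.19, a log2 ratio of -0.13 (-0.50 to 0.24). B3 with B4 (0.24, -0.01 to 0.49), B3 with B7 (0.24, -0.01 to 0.48), B4 with B5 (0.20) and B5 with B9 (0.27) followed. As deposited none of the 5 had an interval above 0. Balanced again, B5 with B9 had one (0.51, 0.06 to 0.95). Without sparse bins B3 with B7 had one (0.25, 0.003 to 0.49), while B5 with B9 had none (0.11, -0.12 to 0.34). B4 with B5 then turned to -0.03 (-0.31 to 0.24). Over the 78 pairs 10 had an interval below 0 and 0 had one above it, against 80 and 107 of the 558 in the interval.

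**Figure D2:**
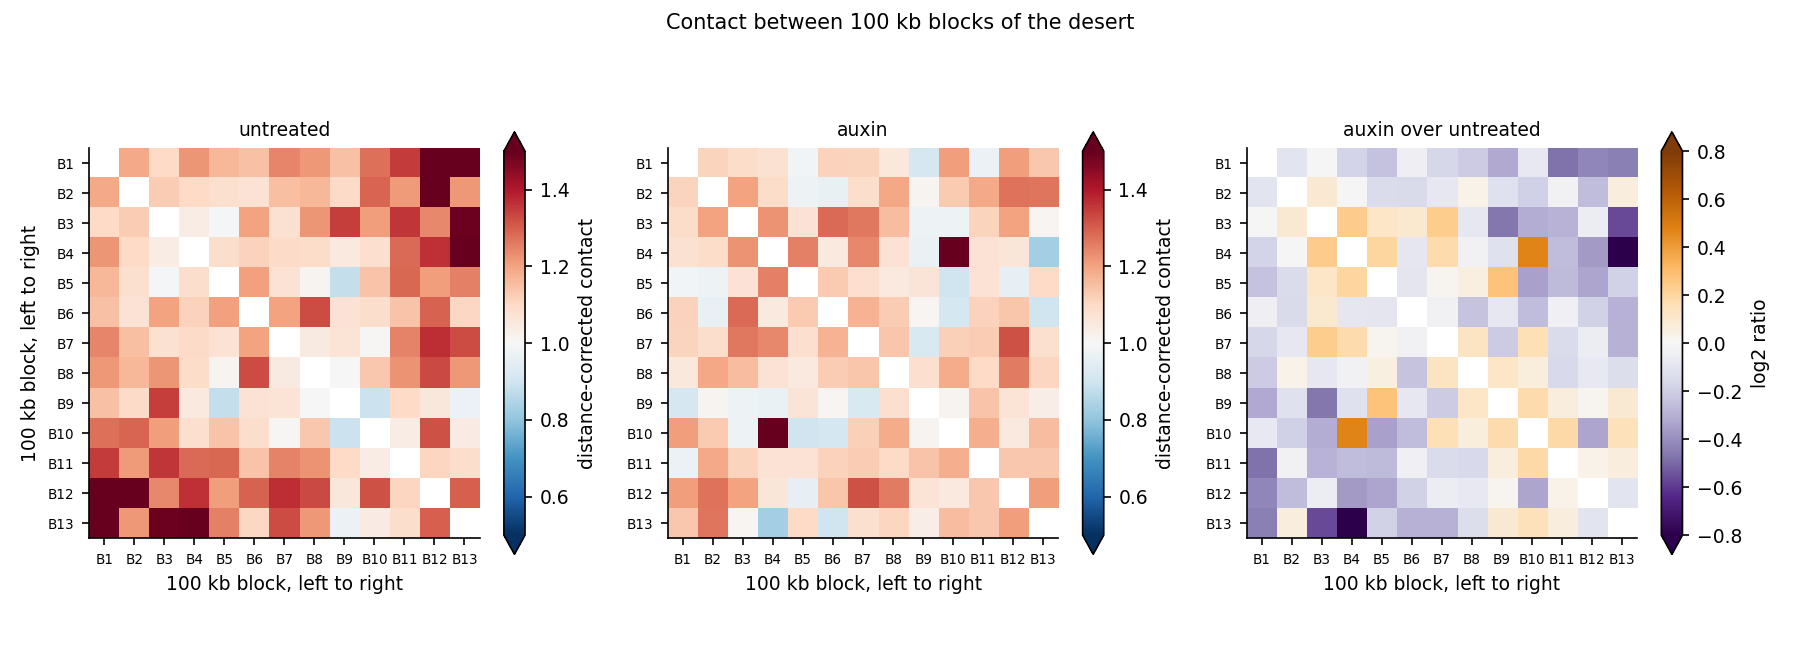
Distance-corrected contact between the 13 blocks of the desert (B1 at its left edge) in the untreated and auxin matrices, and the log2 ratio of auxin over untreated, each square being 1 pair of blocks and colours being cut at the ends of each scale. The dark corner of the untreated map, where B1 to B4 meet B12 and B13 at up to 1.87, is mostly paler in the auxin map. B2 with B13 is not (1.22 and 1.27). The lowest values of the ratio map, B4 with B13 and B3 with B13, lie in this corner.

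The insulation score asks how many contacts pass over a bin. It is log2 of the mean contact between the 100 kb on either side over the interval's mean, and low values mark boundaries. As deposited the desert was weakly divided, with a mean score of 0.12 untreated and 0.17 auxin and scores above 0 in 117 and 121 of its 128 bins. The remaining 387 bins averaged -0.06 and -0.07. Along the desert the score ran over a range of 0.677 untreated and 0.552 auxin, against 1.37 and 1.12 over the other bins. Balanced again, its mean was -0.15 and -0.05, below that of the other bins (0.02 and 0.00), but its spread was still the smaller, with an SD of 0.112 and 0.105 against 0.241 and 0.183.

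The highest point lay at 47290001, with scores of 0.45 and 0.49, and the lowest point was the left edge in the untreated matrix. Just outside it, the bin starting at 46650001 was a minimum of the untreated matrix (-0.31) and that at 46640001 one of the auxin matrix (-0.11). The first bin, starting at 46660001, scored -0.23 untreated and 0.01 auxin, a difference of 0.23 (-0.12 to 0.58), 20 kb from a bin outside the desert that held 18 and 19 read pairs. The largest weakening was at 47040001, where the score went from -0.03 to 0.32, a difference of 0.35 (0.12 to 0.57). The bins starting at 47000001 (0.24, 0.02 to 0.47) and 47660001 (0.28, 0.03 to 0.53) also weakened, and each lies within 10 kb of a sparse bin. In the other direction the score fell at 47150001 from 0.24 to -0.03 (-0.26, -0.51 to -0.01) and at 47880001 from 0.21 to -0.02 (-0.23, -0.43 to -0.03). By a change of at least 0.2 there were 10 weakened bins (7.81%) and 3 strengthened bins (2.34%) in the desert, against 9.13% and 9.71% of the 515 scored bins. As deposited, weakened bins were thus near the background share and strengthened bins below it. The windows of neighbouring bins overlap, so the called bins are not independent. Balanced again, 25 of the 128 desert bins were weakened and 3 strengthened, against 13.6% and 13.0% of all bins. The share of weakened bins then lay above the background.

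Minima at least 0.2 deep divided the desert at 6 bins untreated and 4 bins auxin. The untreated minima started at 47060001 (score -0.07), 47210001 (0.01), 47380001 (0.00), 47510001 (0.00), 47780001 (0.02) and 47930001 (-0.09), the last being the right edge. The bin at 47210001 holds the pseudogene Gm18169. The auxin minima started at 46700001 (-0.06), 47150001 (-0.03), 47380001 (0.01) and 47480001 (0.03). The minimum at 47380001 was shared exactly, that at 47510001 had an auxin minimum 30 kb away, and the other 4 untreated minima had none within 50 kb. Both 47150001 and 47480001 adjoin a sparse bin, and without bins next to sparse ones 6 and 2 minima were left, of which 1 was shared within 20 kb. None of the shifts at these minima had an interval that excluded 0 apart from that at 47150001. Calls depended on the window: 50 kb gave 12 and 10 minima and 200 kb gave 0 in both matrices.

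**Figure D3:**
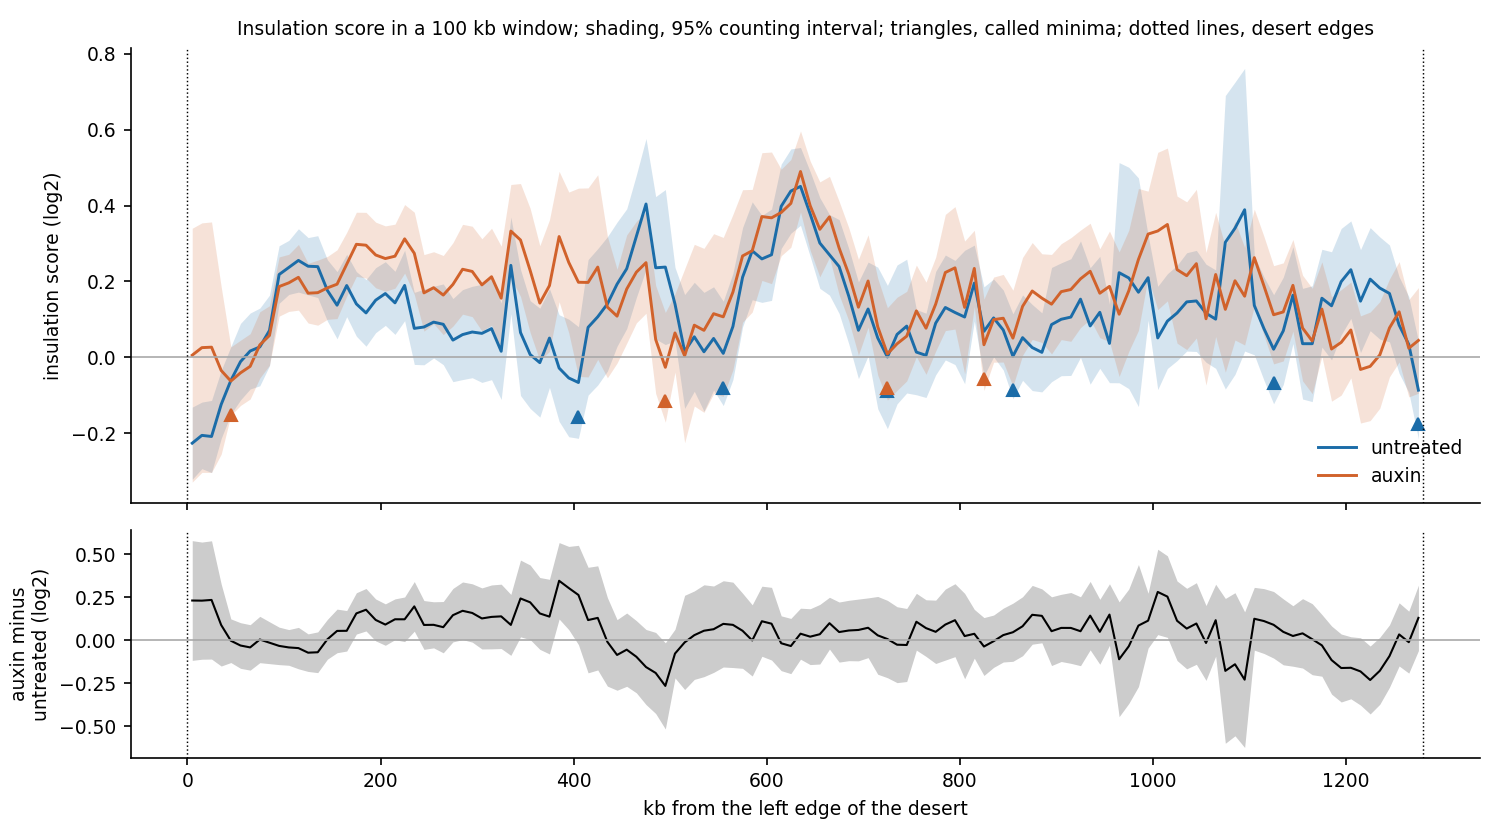
Insulation score (log2) along the desert in the untreated and auxin matrices and, below, the difference of auxin minus untreated, against kb from the left edge of the desert, with 95% counting intervals as shading, called minima as triangles and the edges as dotted lines. Both curves stay mostly above 0, share a high point at 630 kb and a minimum at 720 kb, and differ most at 380 kb.

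The bins of the 5 annotated features of the desert showed no common mark. Their contact with the rest of the desert was between 1.13 (Gm6912) and 1.30 (Gm18169) untreated and between 1.11 and 1.21 auxin. Only the bin of Gm18169 had a log2 ratio whose interval excluded 0, at -0.19 (-0.38 to -0.01). Insulation scores of these bins ran from 0.01 to 0.22 untreated and from 0.10 to 0.20 auxin.

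Contacts leaving the desert were compared with those staying in. Of the contact of its bins over at least 100 kb, 37.3% (36.7 to 37.9) stayed inside untreated and 35.8% (35.3 to 36.3) auxin, which is -0.06 on the log2 scale (-0.09 to -0.03). The distance decay of each matrix alone would give 34.6% and 33.0%. The share over this expected share was 1.08 in both matrices, so relative to the decay the internal share did not fall. Balanced again, 34.8% (34.1 to 35.5) and 33.4% (32.8 to 34.0) stayed inside. The decay would then give 34.5% and 33.0%, within these intervals, so the excess also turned on the balancing. As deposited, the share going left was 30.3% untreated and 27.4% auxin, and the share going right 32.4% and 36.8%. As shares, the outgoing contact therefore shifted from left to right. Distance-corrected contact with the left stretch was 1.18 (1.15 to 1.21) untreated and fell to 1.01 (0.994 to 1.03), with a ratio of -0.22 (-0.26 to -0.18) on the log2 scale. Contact with the right stretch went from 0.909 (0.892 to 0.927) to 0.9495 (0.933 to 0.966), a ratio of 0.06 (0.03 to 0.10). With an expected level from pairs with no desert bin this ratio was 0.02 (-0.02 to 0.05), which includes 0, and that of the left was -0.33 (-0.37 to -0.29). Balanced again, the left gave 1.12 and 0.980 (-0.19, -0.24 to -0.14) and the right 0.826 and 0.880 (0.09, 0.04 to 0.14).

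The fall towards the left was shared by nearly the whole desert. It was not particular to the desert, since the right stretch also met the left stretch less in auxin (1.35 to 1.11, -0.28, -0.34 to -0.23). The corrected contact of the 13 desert blocks with the left stretch ran from 1.02 to 1.56 untreated and from 0.894 to 1.11 auxin. The auxin value was the smaller in all 13, with an interval below 0 in 11, all but B1 and B4. B1, which lies nearest, gave 1.02 in both matrices. B11 had the largest fall, from 1.56 (1.246 to 1.914) to 0.968 (0.901 to 1.04), or from 1.30 to 0.973 without sparse bins. Balanced again, 12 of the 13 were lower, 7 with an interval below 0. Contact with the right stretch was lower in auxin for B1 (-0.21, -0.34 to -0.09) and higher for B9 (0.15, 0.02 to 0.28) and B11 (0.22, 0.12 to 0.31). Balanced again, B1 was lower and B6, B11 and B12 were higher, and the interval of B9 included 0 (0.13, -0.08 to 0.35). Without sparse bins B13 was higher (0.10, 0.01 to 0.19) beside B9 and B11.

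**Figure D4:**
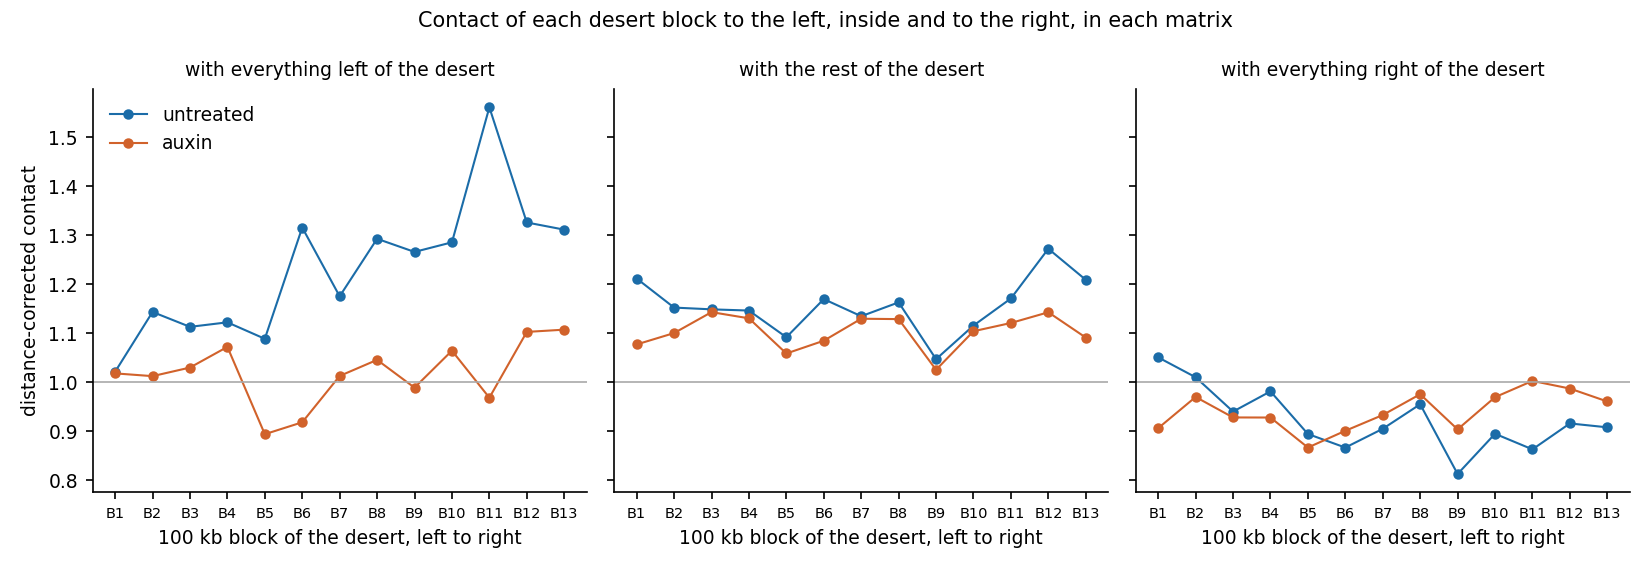
Distance-corrected contact (no unit) of each desert block, B1 at the left edge to B13 at the right edge, with all bins left of the desert, with the rest of the desert and with all bins right of it, in the untreated and auxin matrices. The untreated points lie above the auxin points for every block towards the left, reach 1.56 at B11, and lie below them in the right part of the desert towards the right.

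In 100 kb steps outward, the desert had its highest untreated contacts with another stretch free of protein-coding genes. In the auxin matrix the highest step lay on the right, at 1.39 against at most 1.26 on the left. Contact of the desert with 46.26 to 46.36 Mb was 1.56 (1.49 to 1.64) untreated and 1.22 (1.16 to 1.29) auxin. With 46.16 to 46.26 Mb it was 1.49 (1.42 to 1.56) and 1.26 (1.20 to 1.33). Both steps lie in the gap of 232.6 kb between Gm4737, a predicted gene, and Nectin3. Both values stood above those of the steps nearer to the desert, which hold Nectin3 or no protein-coding gene, after the same correction for distance. Over the body of Nectin3 contact was 1.03 (0.986 to 1.08) untreated and 0.806 (0.763 to 0.852) auxin, or -0.36 on the log2 scale (-0.46 to -0.26). Cd96, which encodes a lymphocyte surface receptor, went from 1.26 (1.15 to 1.37) to 0.983 (0.923 to 1.05), a ratio of -0.35 (-0.51 to -0.20). The whole segment from Cd96 to Nectin3 went from 1.31 (1.28 to 1.35) to 1.04 (1.02 to 1.07), a ratio of -0.33 (-0.38 to -0.28). Balanced again, it gave 1.197 and 0.990 (-0.27, -0.34 to -0.21).

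The fall with Cd96 to Nectin3 was seen from the left part of the desert, 46.66 to 47.09 Mb (1.24 to 1.08, log2 -0.20, -0.26 to -0.14). It was larger from the middle, 47.09 to 47.52 Mb (1.36 to 0.967, -0.50, -0.60 to -0.40), and from the right part, 47.52 to 47.94 Mb (1.48 to 1.07, -0.47, -0.62 to -0.33), both intervals lying below that of the left part. Balanced again, the ratios were -0.14 (-0.22 to -0.07), -0.45 (-0.59 to -0.31) and -0.38 (-0.55 to -0.22), and the interval of the right part touched that of the left part. Of the 11 steps on the left, 8 had an interval below 0. The farthest, 45.56 to 45.66 Mb, had one above 0 (0.874 to 1.20, log2 0.46, 0.31 to 0.61), and the segment from Slc9c1 to Abhd10 at this end went from 0.914 to 1.05 (0.20, 0.08 to 0.32). Balanced again, that segment gave 1.08 and 1.19 (0.15, -0.04 to 0.33). Slc9c1 encodes a sperm sodium and proton exchanger.

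To the right, contact of the desert dropped across the Dppa and Morc1 genes, came back further out and dropped again beyond Myh15. The 2 bins of Gm52257 gave 1.34 (1.21 to 1.49) untreated and 1.23 (1.10 to 1.37) auxin from 474 and 449 read pairs, with a log2 ratio of -0.13 (-0.34 to 0.08). Balanced again, they gave 1.06 and 0.978. The gap between Gm52257 and Dppa4 was lower in auxin (1.08 to 0.910, -0.24, -0.33 to -0.15). This difference had an interval including 0 when balanced again (-0.12, -0.27 to 0.02). The segment of Dppa4 and Dppa2, which encode DNA-binding proteins of pluripotent cells, gave 0.683 (0.616 to 0.756) and 0.785 (0.732 to 0.842), a ratio of 0.20 (0.02 to 0.38). Morc1, a gene of transposon silencing in the germline, gave 0.667 and 0.763 (0.20, 0.08 to 0.31). Balanced again, neither of these ratios had an interval that excluded 0 (0.13, -0.06 to 0.31, and 0.12, -0.02 to 0.27).

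Further out, the segment from Trat1 to Cip2a, with the resistin-like genes between them, stood above 1 in both matrices at 1.12 (1.06 to 1.19) and 1.21 (1.16 to 1.27). The step from 48.74 to 48.84 Mb in it was the highest on the right, at 1.35 and 1.39. Myh15, a myosin heavy chain gene, went from 0.883 (0.805 to 0.972) to 1.18 (1.10 to 1.26), a ratio of 0.41 (0.25 to 0.58). From Ift57, a gene of intraflagellar transport, to Cd47, which encodes a surface protein that restrains phagocytes, the values were 0.600 and 0.677 (0.17, -0.03 to 0.37). Bbx, an HMG-box gene, gave 0.649 and 0.799 (0.30, 0.12 to 0.48). The ratios for Myh15 and Bbx kept an interval above 0 when balanced again (0.32, 0.07 to 0.57, and 0.39, 0.21 to 0.56), and that for Trat1 to Cip2a (0.11, 0.01 to 0.22) did not (0.07, -0.08 to 0.23). With an expected level from pairs with no desert bin, the intervals for Dppa4 and Dppa2, Morc1 and Trat1 to Cip2a included 0, that for Ift57 to Cd47 lay above 0 (0.32, 0.12 to 0.52), and those for Myh15 and Bbx lay above 0 as well.

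The rise with Myh15 was largest from the right part of the desert, at 0.847 (0.763 to 0.961) and 1.32 (1.18 to 1.48), a ratio of 0.64 (0.43 to 0.86). From the middle and left parts the ratios were 0.19 (-0.14 to 0.52) and 0.23 (-0.08 to 0.54), and these intervals overlap that of the right part. Without sparse bins the ratio of the middle part was 0.39 (0.18 to 0.60). The right part also rose with Dppa4 and Dppa2 (0.646 to 0.862, log2 0.42, 0.13 to 0.70) and with Trat1 to Cip2a (1.14 to 1.38, 0.28, 0.15 to 0.41). The left part fell with Trat1 to Cip2a (1.16 to 1.01, -0.20, -0.37 to -0.03), and the 2 intervals did not overlap. Without sparse bins the fall of the left part had an interval that included 0 (-0.15, -0.30 to 0.01). With an expected level from pairs with no desert bin, the intervals with Trat1 to Cip2a included 0 and overlapped for both parts (0.05, -0.09 to 0.18, on the right and -0.11, -0.28 to 0.06, on the left). Of the 29 steps on the right 12 had an interval above 0 and 2 had one below 0. The 5 consecutive steps from 49.24 to 49.74 Mb, which hold Gm4802 and part of Ift57, all rose, by 0.45 to 0.59 on the log2 scale and by 0.42 to 0.76 when balanced again. Their untreated values ran from 0.493 to 0.737, and the step from 49.64 to 49.74 Mb was the lowest on the right.

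**Figure D5:**
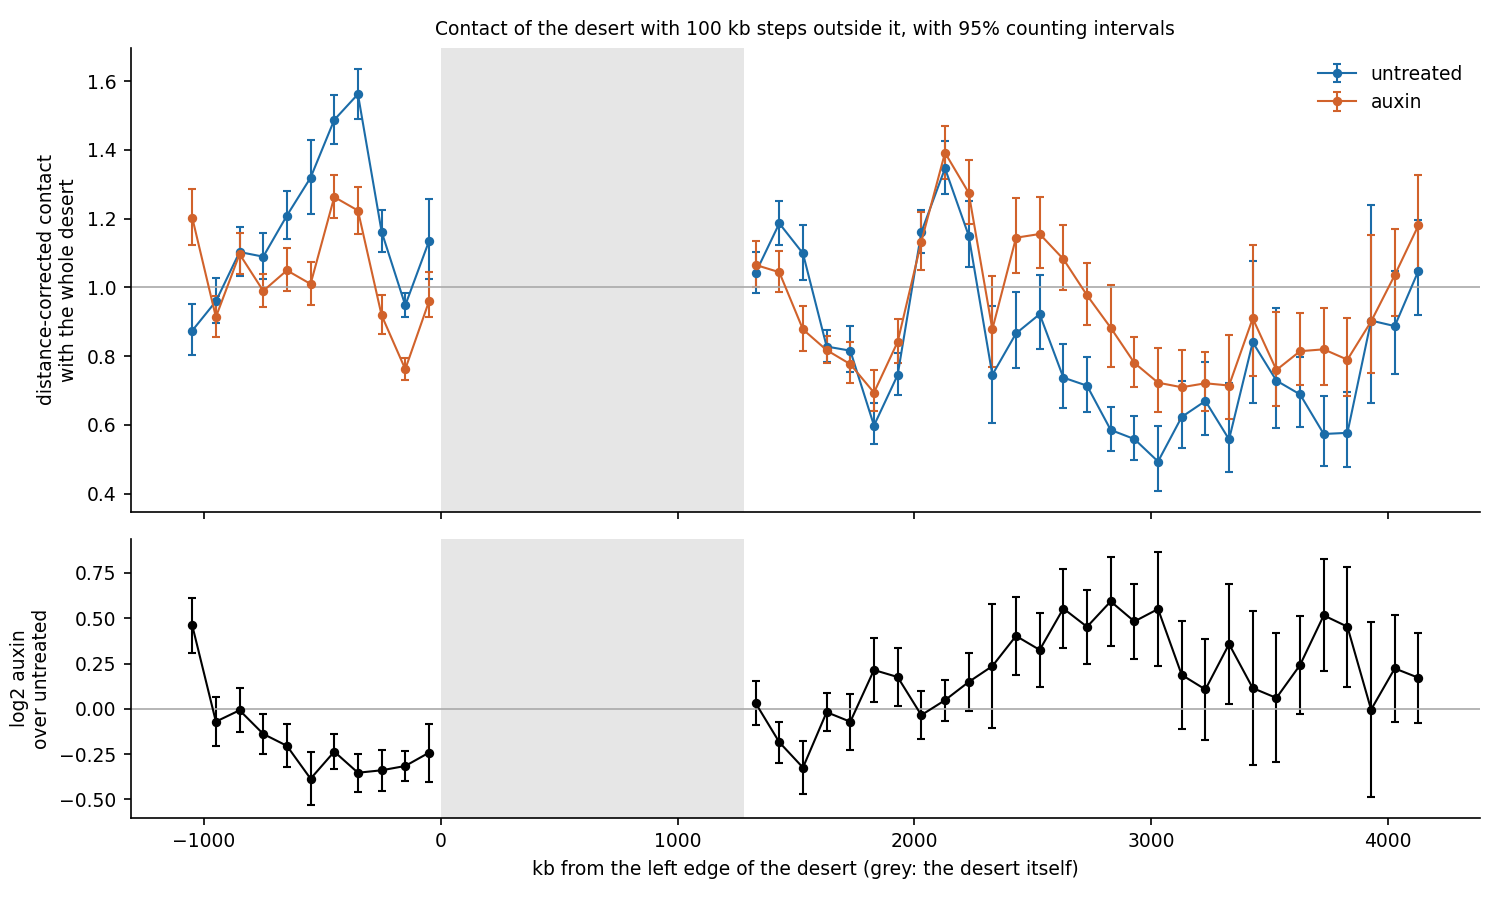
Distance-corrected contact (no unit) of the whole desert with each 100 kb step outside it in the untreated and auxin matrices and, below, the log2 ratio of auxin over untreated, against kb from the left edge of the desert, which is shaded grey, with 95% counting intervals. The peak of 1.56 on the left is lower in auxin, and the low stretch beyond 2300 kb on the right is higher.

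To place the desert in its surroundings, its internal contact was compared with that of a window of the same 128 bins at each of 408 positions in the interval, which overlap and share bins. As deposited, 2 positions exceeded it untreated and 10 auxin. The highest windows began at 46.67 and 46.79 Mb and so lay mostly in the desert, and the lowest began at 48.45 and 48.37 Mb. Balanced again, 196 and 201 of the 408 positions exceeded it and the highest windows began at 49.51 and 49.59 Mb. The log2 ratio of the desert, -0.06, was exceeded by 319 positions.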

How the data were processed

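The names of the deposited matrices say that the authors combined replicates and applied iterative correction at 10 kb; the deposited values are a contact signal with no unit and no scaling for depth. The submitters' processing notes list mm10 and Trim Galore. Not given in the sources used here were the aligner, the balancing tool and any filter on reads. Per the labels' protocols, the labelled libraries were enriched for this interval with RNA baits; no source used here says whether the matrices came from such libraries.

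The deposited values are read pairs scaled by bin factors. Whole read pairs were recovered within 0.02 of a whole number for 100% of nonzero values, and gave the depth and the intervals (gamma intervals for weighted Poisson sums; the delta method for log2 ratios; 95%), which cover counting error only. Copies of 1 ligated molecule are not independent, and the spread between cultures is not known. Row sums leave out the diagonal. Insulation minima were the lowest bin within 50 kb and at least 0.2 below the lower maximum within 250 kb on either side. Named were the 5 highest and 5 lowest block pairs untreated and the 5 largest rises and falls, of those with at least 50 read pairs in each matrix, all minima, all outside segments and both flanking genes. The members, block grid, segments and thresholds were chosen with earlier results of these data known; the 100 kb steps outside the desert, the contacts of single blocks with each side, the distant block pairs and the features' bins were added after seeing the values. Python 3.11.15, NumPy 2.4.6 and SciPy 1.17.1 were used. Recovery of read pairs, the log2 ratio of distant desert pairs and the insulation score of a map without structure were tested on simulated data. Balancing again, the calls of minima and block pairs, and the shares were not.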

Additional observations from a re-analysis of the deposited data

How the results depend on the processing

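Of 189 values recomputed under another choice, 108 were labelled the same. A contact value moved where it left its main interval. A log2 ratio was the same where its call did not change, so that a ratio without a call may have changed sign. Among headline results 62 were the same, 45 moved, 8 were reversed and 2 weaker. Among the others 46 were the same, 16 moved, 2 were reversed, 7 weaker and 1 stronger. Balancing again, which makes row sums equal within the interval, changed most. Internal contact turned from above to below 1, at 0.962 untreated and 0.938 auxin, and its log2 ratio of -0.036 then included 0. By distance it gave 0.920 and 0.945, 0.932 and 0.930, 1.06 and 0.936, and 1.27 and 0.981; this range of values by distance, and the balanced-again block counts, shares and window positions, were chosen after seeing the data. It also gave 5 block pairs higher, 7 auxin minima, 25 weakened bins, shares of 34.8% and 33.4%, contacts of 1.12 and 0.980 on the left and 0.826 and 0.880 on the right, 1.08 for Slc9c1 to Abhd10 untreated, 0.990 for Cd96 to Nectin3 auxin, and 196 and 201 higher windows.

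An expected level from pairs with no desert bin gave 1.21 untreated and 1.13 auxin inside, 1.15 auxin at 100 to 250 kb, and 1.16, 1.38 and 1.87 untreated in the longer ranges. On the left it gave 1.30 and 1.03, on the right 0.929 untreated, and the log2 ratio on the right of 0.017 then included 0. Read pairs over expected read pairs gave 1.19 untreated. Higher and lower block pairs numbered 0 and 1 of 21 with 200 kb blocks and 0 and 1 at 1.5-fold; 2 were higher with the grid moved by 50 kb and 0 without sparse bins. Windows of 50 kb gave 12 and 10 minima, 25 weakened and 7 strengthened bins, and windows of 200 kb gave 0, 0, 2 and 0. A depth of 0.3 gave 3 untreated minima and a depth of 0.1 gave 9 auxin. Internal shares were 47.1% and 45.5% from 20 kb, 30.3% and 28.8% from 200 kb, and 34.4% and 33.3% without 50 kb at each edge. Except where equal row sums act by construction, the causes were not tested.

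No paired analysis was possible because each condition had 1 pooled matrix. Single desert bin pairs held at most 56 and 54 read pairs, so that sums over areas were used.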

Other observations

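Single bins of the desert ranged more widely than its blocks, but each rests on fewer read pairs, so counting error alone widens their range. Among the 124 bins with at least 100 read pairs in both matrices, contact with the rest of the desert had a median of 1.18 untreated and 1.12 auxin, and it was above 1 in 117 and 114. The bin starting at 47130001 was the lowest in both matrices, at 0.692 (0.578 to 0.828) and 0.705 (0.521 to 0.924), from 164 and 146 read pairs inside the desert. It holds no annotated gene or pseudogene. The highest bins differed, 47830001 untreated at 1.54 (0.770 to 2.63) and 47670001 auxin at 1.37 (1.18 to 1.59), and the first of these rested on 56 read pairs.

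The left and the right stretch, which the desert separates, met each other more than the mean at these distances in both matrices, at 1.35 (1.31 to 1.38) untreated and 1.11 (1.08 to 1.14) auxin. Their log2 ratio was -0.28 (-0.34 to -0.23). Balanced again it was -0.27 (-0.33 to -0.20), and with an expected level from pairs with no desert bin -0.19 (-0.25 to -0.14).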
